A study of Mus musculus with 2 samples.

Results

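Cycling Atoh1-positive secretory progenitors of the mouse colon were described from 1 single-cell RNA library per genotype. They are the epithelial cells in which the fate regulator Atoh1 and genes of cell division were detected together. A barcode was counted where it held at least 5000 UMIs (unique molecular identifiers, each counting 1 captured RNA molecule), at least 500 genes and under 25% mitochondrial UMIs, with Epcam at 1 UMI or more, Ptprc and Lgr5 at 0, Atoh1 at 1 or more, and Mki67, Top2a, Birc5 and Ube2c at 3 or more when summed. The rule found 609 cells in the Mettl14_cKO library and 1024 cells in the control library, together 1633 of 19406 deposited barcodes.

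The Mettl14_cKO library came from mice labelled M14(f/f);Villin-Cre, in which a recombinase driven by the Villin promoter acts across the gut epithelium. The control library came from mice labelled M14(f/f), so both groups carry the floxed allele and only the Mettl14_cKO group carries Cre. All mice were C57BL/6 and 4 weeks old, and crypt cells of the colon from 3 mice were pooled for each genotype. M14 was read as Mettl14, a subunit of the enzyme complex that places N6-methyladenosine (m6A) on RNA. With 1 library per genotype no test was possible. Every interval given is a 95% interval for counting error only and says nothing of the spread between mice.

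In the colonic crypt, Notch signalling keeps dividing progenitors on the absorptive path. A progenitor that escapes it switches on Atoh1, a basic helix-loop-helix transcription factor required for all secretory lineages, and presents Delta ligands that hold back its neighbours. Its descendants become goblet, deep crypt secretory or enteroendocrine cells, and the ETS factor Spdef drives goblet maturation. Cells that carry both Atoh1 and division genes therefore stand at the point where secretory commitment meets the last divisions.

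The cycling Atoh1-positive cells held 18350674 UMIs in the Mettl14_cKO library and 23635085 in the control library, with medians of 25819 and 20609.5 UMIs per cell. Xist was at 266 CPM (UMIs of a gene scaled to the same total in every set of cells) in Mettl14_cKO and 0 in control cells, and Ddx3y of the Y chromosome at 0 and 32.9 CPM, so sex and genotype cannot be told apart. Mettl14 itself was at 5.61 CPM (4.58 to 6.81, from 103 UMIs) in Mettl14_cKO and 5.03 CPM (4.17 to 6.02, from 119 UMIs) in control cells. Neither the floxed exons nor the end of the transcript that was read is given in the sources used here, so this level does not check the deletion. A Scrublet doublet score of 0.25 or more was found in 4 Mettl14_cKO (0.657%) and 16 control cells (1.56%), and 4 and 1 of the cells had a barcode sequence that also occurred in the other library.

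The values that chose the cells are given as a description. Atoh1 had a median of 3 UMIs per Mettl14_cKO cell and 4 per control cell. It rested on a single UMI in 180 Mettl14_cKO (29.6%) and 201 control cells (19.6%), and reached 5 or more in 257 and 416 cells. In barcodes with Ptprc and without Epcam, which should lack the gene, 1.18% of 340 held an Atoh1 UMI in the Mettl14_cKO library and 1.35% of 74 in the control library. The median depths of these barcodes were 2329 and 1624.5 UMIs. The division genes had a median sum of 13 UMIs in both libraries. Their sum stood at the minimum of 3 in 63 Mettl14_cKO and 123 control cells, and 98 and 216 barcodes just outside had a sum of 2. The condition on Lgr5, the stem cell receptor, kept out 7 Mettl14_cKO and 98 control barcodes. Top2a was detected in 46.5% of Mettl14_cKO and 71.9% of control cells, whereas Mki67 was detected in 76.8% and 76.0%.

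Among all barcodes that met the depth, gene, mitochondrial, Epcam and Ptprc conditions, cycling Atoh1-positive cells made up 16.0% (14.9 to 17.2) of 3796 in the Mettl14_cKO library and 16.2% (15.3 to 17.1) of 6330 in the control library. The difference was -0.134 percentage points (-1.62 to 1.37). With every barcode thinned to 5000 UMIs before the rule was applied, the shares were 4.90% (4.23 to 5.63) and 5.78% (5.22 to 6.39). Their share of all cycling cells was 42.8% (40.2 to 45.4) in Mettl14_cKO and 53.8% (51.6 to 56.1) in control cells, and 21.0% (18.3 to 23.8) and 27.4% (25 to 29.9) after thinning. Cycling Atoh1-negative cells, which met the same conditions with Atoh1 at 0, were 21.5% of the Mettl14_cKO and 13.9% of the control barcodes. After thinning they were closer, at 18.5% (17.2 to 19.7) and 15.3% (14.5 to 16.3). With no condition on Lgr5, the unthinned shares of the epithelium were 16.2% in Mettl14_cKO and 17.7% in control. Under the rule, the cycling Atoh1-positive cells thus held a near-equal share of the epithelium in both libraries without thinning. After thinning their share was lower in Mettl14_cKO, with overlapping intervals. Their share of the cycling pool was smaller in Mettl14_cKO with and without thinning.

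The label was checked against Spdef, which the rule did not use, and against the other secretory genes. At 5000 UMIs per cell, Spdef was detected in 49.3% (45.2 to 53.3) of Mettl14_cKO and 58.4% (55.3 to 61.4) of control cycling Atoh1-positive cells. In cycling Atoh1-negative cells it was detected in 11.5% and 10.5%. Reg4 or Kit, markers of deep crypt secretory cells, were found in 32.0% of Mettl14_cKO and 42.6% of control cells, against 11.3% and 12% of cycling Atoh1-negative cells. Markers of the enteroendocrine transcription programme (Neurog3, Neurod1 or Insm1) were found in 1.64% and 1.56%, against 1.72% and 1.94% of cycling Atoh1-negative cells. Chga or Chgb, genes of enteroendocrine granules, were found in 6.40% and 3.71%, against 4.79% and 4.1%. Tuft markers (Pou2f3, Dclk1, Trpm5 or Avil) were found in 1.15% and 0.586%, against 1.72% and 0.797%. The data go with the label: these were dividing cells whose secretory genes were mostly of the goblet and deep crypt type.

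Markers of other cell types were low in the cycling Atoh1-positive cells of both libraries. Fibroblast markers (Col1a1, Col3a1, Dcn) were at 0 in both. The 4 T or NK cell markers summed to 0.164 CPM in Mettl14_cKO and 1.10 CPM in control cells, and the 3 B or plasma cell markers to 2.83 and 0.296 CPM. The 2 endothelial markers summed to 2.07 and 0.592 CPM. The 4 myeloid markers summed to 18.2 CPM in Mettl14_cKO and 0.0423 CPM in control cells, where Lyz2, S100a8 and S100a9 were at 0. Erythroid markers summed to 22.9 and 2.62 CPM. The part of these differences in the results below was not tested, except where a value is given.

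Against cycling Atoh1-negative cells of the same library, 131 of 4656 genes compared were at least 2-fold higher in both libraries (2.81%) and 18 were at least 2-fold lower in both (0.387%). Within the Mettl14_cKO library alone the shares were 3.37% higher and 0.873% lower, and within the control library 5.09% and 1.94%. Genes were compared where they reached 20 CPM and 10 UMIs, and the genes of the rule were left out. The 10 genes with the highest ratios, taken by the smaller of the 2 libraries, were Tpsg1, Retnlb, Agr2, Ramp1, Gm1123, Rep15, Rbp4, Muc2, Slc12a8 and Spdef. Agr2, the endoplasmic reticulum disulfide isomerase needed for mucin folding, was 10.9-fold higher (10.8 to 11.1) in Mettl14_cKO and 7.14-fold higher (7.07 to 7.21) in control cells. Muc2, the gel-forming mucin of colonic mucus, was 6.25-fold (6.09 to 6.41) and 7.62-fold higher (7.49 to 7.75). Retnlb, a secreted resistin-like protein of goblet cells, was 8-fold and 8.78-fold higher, and Spdef 6.15-fold and 6.33-fold. The 10 genes included a transcription factor, a folding enzyme and secreted products of the goblet lineage. Each was higher in both genotypes, which the ranking by the smaller ratio required.

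The same genes were also read in the Ptprc-positive, Epcam-negative barcodes, which should lack them. These sets are small, with 1086051 UMIs in 340 Mettl14_cKO barcodes and 153567 UMIs in 74 control barcodes. There, Muc2 was at 141 CPM in the Mettl14_cKO library and 280 CPM in the control library, Spink4 at 190 and 1426 CPM, and Agr2 at 383 and 1537 CPM. In cycling Atoh1-negative cells Spink4 was at 1099 and 1587 CPM, so its level in control cycling Atoh1-negative cells lay close to that in the Ptprc-positive barcodes. In cycling Atoh1-positive cells Spink4 was at 6246 and 12932 CPM, above both.

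Promoters of 2 of these genes are shown, 1 for the goblet factor and 1 for its lineage's mucin, since both rank among the highest ratios. The stretches run from 250 bases before to 50 bases after the RefSeq start (GRCm38.p6), 5′ to 3′ on the gene's strand, with the E-box CAGCTG in capitals, a motif type bound by basic helix-loop-helix factors. It reads the same on both strands.
Muc2, chr7:141690090-141690389, plus strand: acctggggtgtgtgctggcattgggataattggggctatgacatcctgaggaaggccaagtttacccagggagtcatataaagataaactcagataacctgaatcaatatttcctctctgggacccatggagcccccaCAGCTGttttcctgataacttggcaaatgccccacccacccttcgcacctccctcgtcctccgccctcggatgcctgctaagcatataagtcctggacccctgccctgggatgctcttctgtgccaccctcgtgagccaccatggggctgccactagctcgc
Spdef, chr17:27728902-27729201, minus strand: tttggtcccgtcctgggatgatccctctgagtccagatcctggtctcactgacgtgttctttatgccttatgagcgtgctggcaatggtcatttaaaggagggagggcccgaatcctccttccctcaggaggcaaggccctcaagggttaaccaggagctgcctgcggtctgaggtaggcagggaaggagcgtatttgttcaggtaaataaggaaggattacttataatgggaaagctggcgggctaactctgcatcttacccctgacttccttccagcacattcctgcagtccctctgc
CAGCTG occurred once in the Muc2 window and was not found in the Spdef window. It was present in at least 1 window of 3 of the 8 genes matched among the 10 highest and of 3 of the 7 matched among the 10 lowest. Of all 32851 single promoter windows 16.3% held it. Some of the genes have several windows, so the counts of genes and the share of windows cannot be set against each other. A match describes the letters only.

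On the low side, the 10 genes were Gsdmc4, Gsdmc2, Cyp2c55, Car1, Krt20, Mgat4c, Pyy, 1810065E05Rik, Il18 and Dpep1. Car1, the carbonic anhydrase of colonocytes, was 2.73-fold lower (2.65 to 2.81) in cycling Atoh1-positive than in Atoh1-negative Mettl14_cKO cells and 4.41-fold lower (4.36 to 4.46) in control cells. Gsdmc4, a member of the gasdermin C family of pore-forming proteins, was 4.51-fold (3.52 to 5.83) and 3.31-fold lower (3.12 to 3.51). Gsdmc2 and Gsdmc4 are near-identical copies, so reads may be split between them. Krt20, the keratin of mature surface cells, was 2.72-fold and 3.34-fold lower. Pyy, a peptide hormone, was 26.4-fold lower in Mettl14_cKO and 2.42-fold lower in control cells. These Pyy values rest on few cells, since 5 cells held 66.9% of its UMIs in Mettl14_cKO and 90.2% in control cycling Atoh1-positive cells, and without them its levels there were 9.28 and 16.0 CPM in place of 27.6 and 162 CPM. In cycling Atoh1-positive cells, 5 cells held 69.8% of the Krt20 UMIs in Mettl14_cKO and 43.9% in control. For Car1 they held 47.05% and 25.8%. Car1, a gene of absorptive cells, and Krt20, a gene of mature cells, were lower in the cycling Atoh1-positive cells within each genotype. Krt20 was also among the genes lowest against non-cycling Atoh1-positive cells, so it does not mark the absorptive path alone here. The ranking required the same sign in both libraries, and the part of these few cells in the Car1 and Krt20 ratios was not tested.

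**Figure D1:**
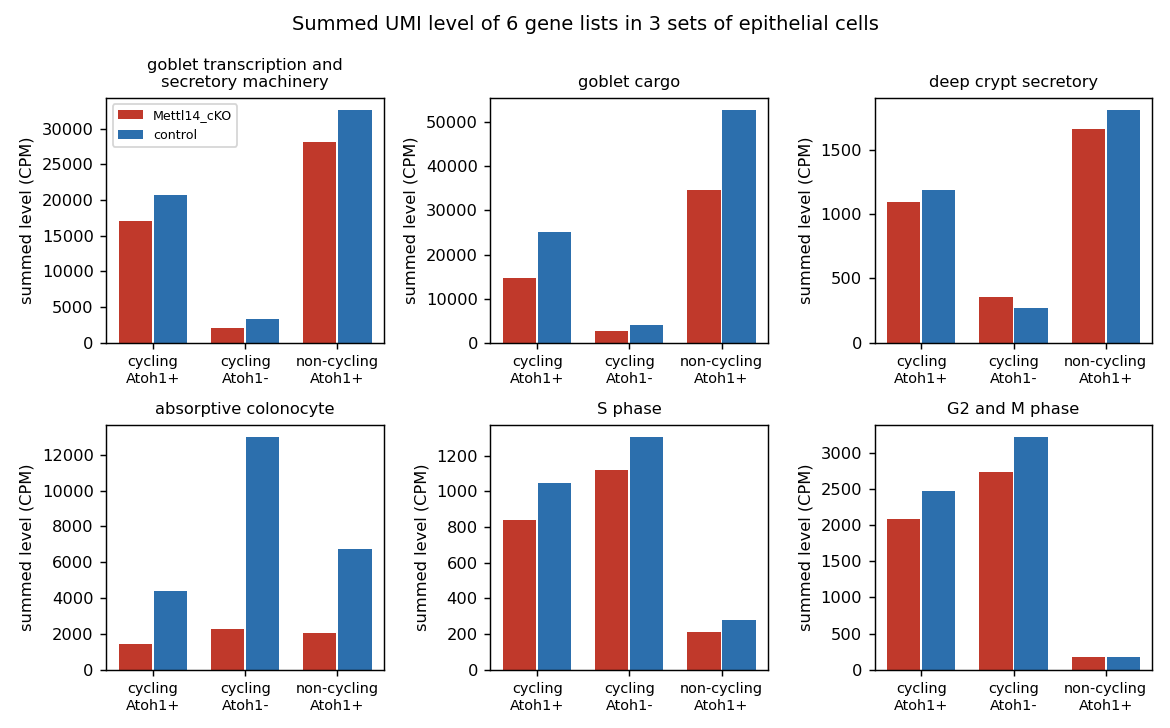
Summed level in CPM of 6 gene lists (panels) in cycling Atoh1-positive, cycling Atoh1-negative and non-cycling Atoh1-positive cells, with Mettl14_cKO in red left of control in blue, 1 library each and no error bars. Goblet and deep crypt lists were higher in both Atoh1-positive sets than in cycling Atoh1-negative cells, and absorptive genes were lower in Mettl14_cKO in each set. Agr2 made up most of the goblet machinery sum in cycling Atoh1-positive cells.

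Non-cycling Atoh1-positive cells, with the 4 division genes at 0, were the nearest comparison on the differentiated side, 861 Mettl14_cKO and 1479 control cells. The rule separates these sets by division genes, so the 203 of 4604 genes at least 2-fold higher in cycling cells in both libraries (4.41%; 6.01% within Mettl14_cKO and 5.33% within control) are given as a description. The 6 leading genes, Pclaf, Cdc20, Ccna2, Cenpa, Pbk and Ccnb2, all belong to DNA replication or mitosis. On the other side 26 genes were at least 2-fold lower in both (0.565%; 2.63% within the Mettl14_cKO and 1.01% within the control library), led by Clca1, Zg16, Spink1, Fcgbp, Krt20 and Sval1. Zg16, a lectin of the mucus layer, was 8.71-fold lower (8.57 to 8.86) in cycling than in non-cycling Mettl14_cKO cells and 11.8-fold lower (11.6 to 12) in control cells. Fcgbp, an IgG-binding mucus protein, was 3.96-fold and 5.03-fold lower. Clca1, a secreted metalloprotease of mucus, was 17.2-fold and 10.4-fold lower. Muc2 was closer, 1.95-fold and 1.56-fold lower, and Agr2 was 1.65-fold and 1.58-fold lower.

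Across the 3 sets, the summed levels of Notch1, Nrarp and Hes1 ran in the opposite order to that of Muc2 in both libraries. Notch1, the receptor, was at 7.70 and 17.6 CPM in cycling Atoh1-negative Mettl14_cKO and control cells, at 6.65 and 12.4 CPM in cycling Atoh1-positive cells, and at 1.70 and 2.28 CPM in non-cycling Atoh1-positive cells. Nrarp, a Notch target that dampens the pathway, followed the same order with 13.2 and 24.7, 9.10 and 16.3, then 2.70 and 6.10 CPM. Hes1, the repressor that Notch induces and that keeps Atoh1 off, was at 72.2 and 75.4, 52.3 and 69.7, then 33.0 and 52.7 CPM. Muc2 ran the other way, with 364 and 939, 2272 and 7152, then 4439 and 11158 CPM. The cycling Atoh1-positive cells lay between the other sets for all 4 genes in both libraries.

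Genes of the Atoh1 programme differed between the genotypes in both directions, and few were abundant. Of 10 genes in the list of Atoh1 partners and lateral inhibition, 4 reached the level for comparison, and none was at least 2-fold apart, where 10.3% of all 5317 genes compared were, a share that 4 genes cannot be told apart from. Their median log2 ratio of Mettl14_cKO over control was -0.03, beside -0.05 for all genes compared. Spdef was at 168 CPM (162 to 174) in Mettl14_cKO and 220 CPM (214 to 226) in control cells. Hes6, which antagonises Hes1, was at 219 and 175 CPM. Sox4, an HMG-box transcription factor, was at 131 and 65.4 CPM, and Cbfa2t3, a corepressor, at 34.5 and 60.3 CPM. Atoh1 itself (chr6:64729125-64731245, plus strand, GRCm38), whose presence the rule fixed, was at 187 and 206 CPM.

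The Delta ligands, through which Atoh1-positive cells restrain their neighbours, were sparse. Dll1 had 2.89 CPM (2.16 to 3.78, from 53 UMIs) in Mettl14_cKO and 8.38 CPM (7.25 to 9.63, from 198 UMIs) in control cells, 2.90-fold lower (2.13 to 4.01) in Mettl14_cKO. Dll4 had 7.52 and 10.6 CPM. At 5000 UMIs per cell either ligand was found in 5.91% (4.17 to 8.09) of Mettl14_cKO and 10.8% (9 to 12.9) of control cells, against 1.84% and 3.65% of cycling Atoh1-negative cells. Of the 12 genes of Notch receptors and targets, only Hes1 reached the level for comparison, with a log2 ratio of -0.41.

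Spdef and the summed level of goblet machinery, most of it Agr2, were higher in cells with more Atoh1. Cells were binned by Atoh1 UMIs after thinning to 5000 UMIs, into 0, 1, 2, and 3 or more, with 270, 186, 79 and 74 Mettl14_cKO and 410, 338, 144 and 132 control cells. Spdef stood at 137, 170, 227 and 235 CPM over these bins in Mettl14_cKO and at 184, 225, 272 and 296 CPM in control cells. Gfi1, a zinc-finger repressor downstream of Atoh1, stood at 6.81, 8.51, 13.2 and 12.5 CPM, and at 8.97, 10.4, 12.4 and 14.7 CPM. The summed goblet machinery stood at 13900, 16840, 24160 and 24410 CPM, and at 17610, 21680, 24000 and 26860 CPM. Over all cycling Atoh1-positive cells this sum was 17080 CPM in Mettl14_cKO and 20690 CPM in control. Agr2 alone made up 15435 and 18516 CPM of it, and the sum without Agr2 was not read by bin. Summed S phase genes stood at 886, 887, 765 and 582 CPM, and at 1093, 1050, 1064 and 798 CPM. The highest Atoh1 bin held more Spdef and a lower S phase level than the lowest in both libraries, while its cells were shallower, with median depths of 23070 against 28860 UMIs in Mettl14_cKO and 17360 against 24670 UMIs in control cells. The part of depth in this order was not tested.

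Goblet secretory machinery and goblet cargo were read as separate lists. Of 16 machinery genes 14 were compared, and 13 of them lay within 2-fold. With 10.3% of all genes 2-fold apart, 1 of 14 is near the background. The exception was Creb3l4, a membrane-bound transcription factor, at 37.2 CPM in Mettl14_cKO and 110 CPM in control cells (2.97-fold lower, 2.73 to 3.24). Foxa3 was at 198 and 175 CPM, Galnt12 at 182 and 169 CPM, and Xbp1, the unfolded-protein-response factor of secretory cells, at 189 and 276 CPM. The median log2 ratio of the machinery was -0.34, and 12 of the 14 genes were at least 2-fold higher than in cycling Atoh1-negative cells in both libraries, against 2.81% of all genes.

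Of 15 cargo genes 13 were compared, with 2 at least 2-fold higher in Mettl14_cKO (5.91% of all genes were) and 6 at least 2-fold lower (4.34% of all genes were). Muc2 was at 2272 CPM (2251 to 2294) in Mettl14_cKO and 7152 CPM (7118 to 7186) in control cells, 3.15-fold lower (3.11 to 3.18). It was detected in 81.6% and 94.9% of cells at 5000 UMIs. Tff3, the trefoil peptide packaged with it, went the other way, at 1550 CPM (1532 to 1568) and 332 CPM (324 to 339), 4.67-fold higher (4.56 to 4.79). Fcgbp was also higher, at 180 and 52.6 CPM (3.43-fold, 3.21 to 3.66).

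The other lower cargo genes were Mptx1, Clca1, Guca2a, Clps and Spink4. Mptx1, a mucosal pentraxin, was at 30.9 CPM in Mettl14_cKO and 1126 CPM in control cells, 36.5-fold lower (33.5 to 39.7). The 5 highest cells held 66.3% of its Mettl14_cKO UMIs, and without the 5 highest cells of each library its levels were 10.5 and 933 CPM, a log2 ratio of -6.34 in place of -5.14. Guca2a, the precursor of guanylin, was at 72.5 and 330 CPM, and Clps, colipase, at 25.1 and 91.8 CPM. Spink4 was 2.07-fold lower (2.06 to 2.08), and its level in the Ptprc-positive barcodes was lower in Mettl14_cKO as well. Between the limits lay Retnlb at 2921 and 1613 CPM, Zg16 at 856 and 801 CPM, Pla2g10 at 238 and 222 CPM, Muc13 at 220 and 275 CPM, and Guca2b at 75 and 107 CPM. For Zg16, 5 cells held 65.6% of the Mettl14_cKO and 46.7% of the control UMIs, and without them its level was 299.5 and 429 CPM, which turns the direction. Products of a single lineage thus differed between the genotypes in both directions in the summed UMIs of the same set of cells. Non-cycling Atoh1-positive cells showed the same split, with Muc2 at 4439 CPM in Mettl14_cKO and 11158 CPM in control cells and Tff3 at 4947 and 660 CPM.

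**Figure D2:**
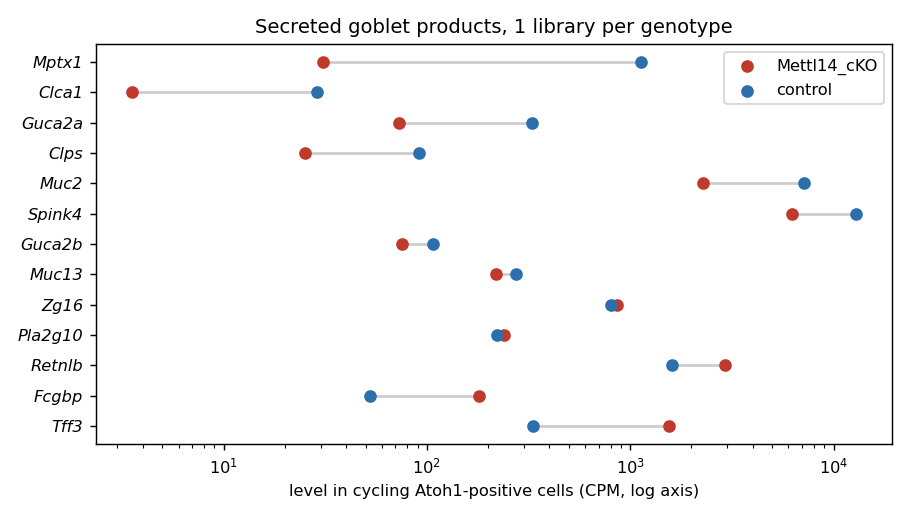
Level in CPM (log axis) of the 13 compared goblet cargo genes in cycling Atoh1-positive cells, 1 point per library, Mettl14_cKO in red and control in blue, joined by a grey line. Muc2 (2272 against 7152 CPM) and Tff3 (1550 against 332 CPM) differed in opposite directions.

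Deep crypt secretory genes lay within 2-fold for all 4 genes compared. Reg4, a secreted lectin, was at 397 CPM in Mettl14_cKO and 608 CPM in control cells, Kit, a receptor tyrosine kinase, at 22.8 and 30.8 CPM, Cd24a at 642 and 496 CPM, and Muc4 at 30.4 and 51.2 CPM. Enteroendocrine genes came from few cells. Neurog3, Neurod1 or Insm1 was found in 24 Mettl14_cKO cells (3.94%) and 37 control cells (3.61%) without thinning. Those cells carried Chga, the granule protein chromogranin A, at 344 and 449 CPM, against 3.87 and 3.85 CPM in the remaining cells. They also carried Muc2, at 2013 and 6443 CPM. Tuft genes were too low to compare, summing to 10.5 CPM over 9 genes in Mettl14_cKO.

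Absorptive genes were lower in the Mettl14_cKO cells. Of 14 genes 8 were compared, 5 of them at least 2-fold lower and none higher (4.34% and 5.91% of all genes), with a median log2 ratio of -1.58 (-1.96 in cycling Atoh1-negative cells). Car1 was at 364 and 1992 CPM, 5.47-fold lower (5.33 to 5.62). Sult1a1, a phenol sulfotransferase of colonocytes, was at 14.2 and 160 CPM, 11.3-fold lower (9.98 to 12.9). Cdx1, an intestinal identity factor, was at 174 and 182 CPM, and Ceacam1 at 325 and 299 CPM. Car1 and Sult1a1 lay far apart between the genotypes, while Cdx1 lay close. The transcription factor Hnf4a was at 29.6 CPM in Mettl14_cKO and 48.1 CPM in control cells. Hnf4g, a related factor, was at 5.89 and 16.2 CPM.

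Division genes were 2-fold apart about as often as other genes. Of 24 S phase genes 19 were compared and 17 lay within 2-fold, and of 27 G2 and M phase genes 21 were compared and 20 lay within 2-fold, where 10.3% of all genes were 2-fold apart. Their median log2 ratios were -0.17 and -0.33. The exceptions were Fen1, a flap endonuclease of replication, at 76.2 CPM in Mettl14_cKO and 27.2 CPM in control cells, Pclaf, a PCNA-binding factor, at 93.3 and 254 CPM, and Nusap1, a spindle protein, at 23.6 and 54.6 CPM. Top2a, a rule gene, was at 54.4 and 107 CPM. More G2 and M than S phase UMIs were counted in 71.3% (67.5 to 74.8) of Mettl14_cKO and 75.4% (72.6 to 78.0) of control cells. In cycling Atoh1-negative cells, chosen by the same division genes, the shares were 75.5% in Mettl14_cKO and 76.3% in control. The rule chose cells by Mki67, Top2a, Birc5 and Ube2c, so division gene levels and this phase balance are given as a description. The part of the rule in them was not tested. Among 9 compared G1 cyclins and CDK inhibitors, Ccnd2, a D-type cyclin, was the only one at least 2-fold apart, at 348 and 151 CPM (2.30-fold higher, 2.21 to 2.40). The inhibitors Cdkn1a, at 75.2 and 65.3 CPM, and Cdkn1b, at 30.9 and 53.9 CPM, lay within it.

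The counts of the next lists read against 5.91% of all genes at least 2-fold higher and 4.34% lower. Of 17 stem cell and Wnt genes 8 were compared, and Olfm4, a secreted crypt base glycoprotein, was the only one past 2-fold, at 23.6 CPM (433 UMIs in 95 cells, 212 of them in 5 cells) in Mettl14_cKO and 0.296 CPM (7 UMIs) in control cells. Sox9 was at 83.6 and 88.9 CPM. Of the 8 compared p53 targets only Phlda3, a repressor of Akt signalling, passed 2-fold, at 23.3 and 2.07 CPM, while Bax, the pore-forming apoptosis effector, was at 278 and 148 CPM. Of the m6A methyltransferase complex 4 genes were compared, and Rbm15, an RNA-binding adaptor of the complex, was at 77.2 and 16.5 CPM (4.68-fold higher, 4.18 to 5.24). Wtap was at 49.3 and 39.3 CPM. Of 4 compared gasdermins 2 were lower, Gsdmc4 at 4.30 and 67.9 CPM and Gsdmc2 at 5.07 and 24.5 CPM, while Gsdmd was at 35.7 and 38.3 CPM. Among 15 genes of endoplasmic reticulum folding and stress, 4 were at least 2-fold lower in Mettl14_cKO (4.34% of all genes were), namely Atf3 at 159 and 848 CPM, Ddit3 at 11.4 and 60.0 CPM, Herpud1 and Edem1, while the chaperone Hspa5 was at 1001 and 557 CPM.

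Interferon, immunoproteasome and MHC genes were lower in the Mettl14_cKO cells in 13 of 14 genes compared (4.34% of all genes were lower), with a median log2 ratio of -2.36. Psmb8, an immunoproteasome subunit, was at 19.1 CPM in Mettl14_cKO and 177 CPM in control cells, 9.27-fold lower (8.31 to 10.4). H2-Ab1, a chain of MHC class II, was at 2.51 and 68.5 CPM, 27.3-fold lower (20.4 to 37.5). B2m, the light chain of MHC class I, was at 126 and 552 CPM. The gene within 2-fold was H2-D1, at 479 and 727 CPM. In cycling Atoh1-negative cells 11 of 14 were lower (4.57% of all genes were lower there and 7.16% higher), with a median of -1.72. In the Ptprc-positive barcodes H2-Ab1 was at 1304 CPM in the Mettl14_cKO and 156 CPM in the control library, the opposite order to the cycling Atoh1-positive cells.

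Epithelial defence genes were split, with 5 of 9 compared at least 2-fold higher in Mettl14_cKO (5.91% of all genes), 2 lower (4.34%), and a median log2 ratio of 2.09. Reg3g and Reg3b, secreted antibacterial lectins, were at 2301 and 2661 CPM in Mettl14_cKO and at 295 and 594 CPM in control cells. Ccl20, a chemokine, was at 130 and 29.7 CPM. The lower genes were Duox2, a hydrogen peroxide-producing oxidase, at 13.2 and 38.7 CPM, and Wfdc2, a secreted whey acidic protein, at 228 and 503 CPM.

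Over all genes, 314 of 5317 were at least 2-fold higher in Mettl14_cKO (5.91%) and 231 were at least 2-fold lower (4.34%). The 12 with the highest log2 ratios were Slpi, Akr1c21, Il4i1, Ly6g, Ncf4, Serpina10, Spink1, Ubd, Lrg1, Mt2, Cbr3 and Reg3g. Slpi, a secreted inhibitor of neutrophil elastase, was at 1067 CPM in Mettl14_cKO and 10.6 CPM in control cells, 101-fold higher (89.0 to 115). Spink1, a trypsin inhibitor, was at 3216 and 93.3 CPM, 34.5-fold higher (33.0 to 36.0), and Mt2, a metallothionein, at 398 and 32.5 CPM. Akr1c21, an aldo-keto reductase, was at 240 and 1.73 CPM, or 193 and 0.213 CPM without the 5 highest cells of each library. Ly6g had 1089 UMIs in Mettl14_cKO cells, 52.8% of them in 5 cells, and 3 UMIs in control cells.

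The 12 with the lowest ratios were Gcg, Mptx1, H2-Ab1, Gsdmc4, Sult1a1, Hao2, Psmb8, Psmb9, Gm5485, Ifi27, Cxcl2 and Selenbp1. Gcg, which encodes proglucagon, was at 2.45 and 250 CPM, but 97.8% of its 5920 control UMIs lay in 5 cells. Without the 5 highest cells of each library its log2 ratio was -1.09 in place of -6.19. For H2-Ab1, by contrast, the 5 highest control cells held 5.87% of its UMIs. Cxcl2, a chemokine, was at 33.2 and 218 CPM, or 18.6 and 201 CPM without those cells. Hao2, a hydroxyacid oxidase, was at 10.1 and 101 CPM, and Selenbp1, a methanethiol oxidase, at 20.4 and 129 CPM.

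Cycling Atoh1-negative cells had the same sign as cycling Atoh1-positive cells for each of these 24 genes. The 2 sets differed in size for some of them, a difference that was not tested. Akr1c21 had a log2 ratio of 6.46 in cycling Atoh1-positive and 3.75 in Atoh1-negative cells, and was at 240 CPM against 13.3 CPM in the Mettl14_cKO cells of these sets. Reg3g had 2.96 and 0.84, and H2-Ab1 had -4.31 and -2.15.

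**Figure D3:**
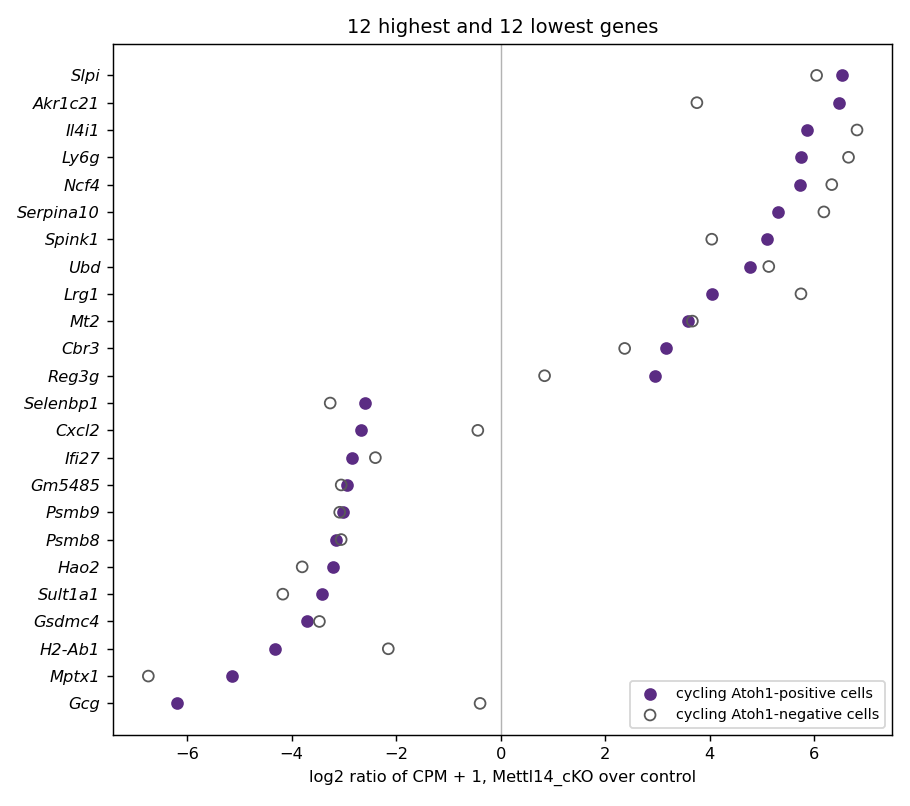
Log2 ratio of CPM plus 1, Mettl14_cKO over control, for the 12 highest and 12 lowest genes of the cycling Atoh1-positive cells (filled points), with the same ratio in cycling Atoh1-negative cells (open points), 1 library per genotype. Both points lay on the same side of 0 for all 24 genes, and Gcg (-6.19 and -0.40) lay far apart.

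These differences were spread over nearly all cells when the genes were read together. At 5000 UMIs, a Mettl14_cKO cell held a median of 5 of the 12 highest genes and a control cell a median of 1. None of the 12 was found in 2 of 609 Mettl14_cKO and 395 of 1024 control cells. Of the 12 lowest genes the medians were 0 and 4, and none was found in 354 Mettl14_cKO and 13 control cells. Because the genes were chosen for this difference, these counts describe how it was spread over cells and lend it no support.

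**Figure D4:**
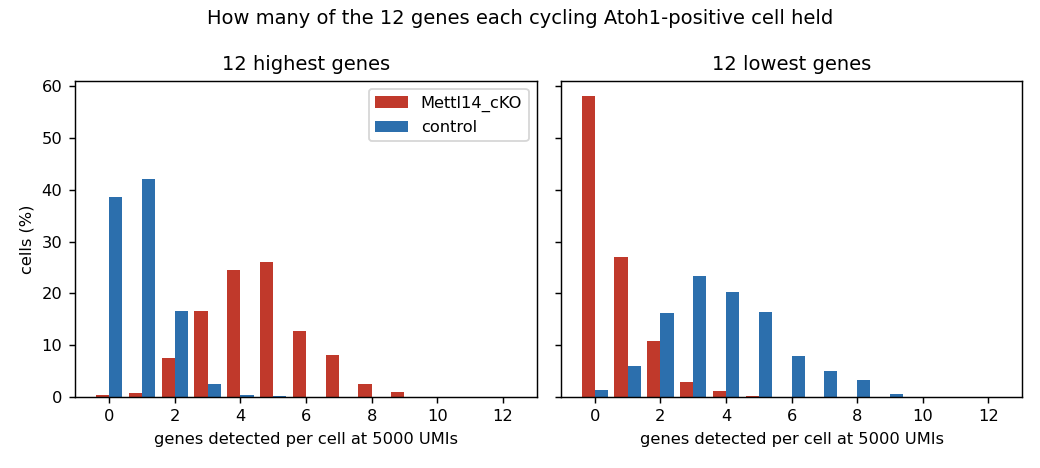
Percent of cycling Atoh1-positive cells (y axis) by how many of the 12 highest (left) or 12 lowest (right) genes were detected after thinning to 5000 UMIs (x axis), Mettl14_cKO in red and control in blue. The medians were 5 and 1 for the highest and 0 and 4 for the lowest genes.

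Taken singly, the higher genes differed in how they were spread over the cells. Mt2 and Cbr3, a carbonyl reductase, were broad, with medians of 341 and 393 CPM per Mettl14_cKO cell. Slpi was concentrated, and the 10% of Mettl14_cKO cells with the most held 98.9% of its UMIs. A split by Slpi UMIs, chosen after its values were seen, put 64 Mettl14_cKO cells (10.5%) at 10 or more UMIs, 115 at 1 to 9 and 430 (70.6%) at 0. The 64 cells had a median depth of 42160 UMIs, against 23070 in the cells without Slpi.

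In the 64 Slpi-high cells, Reg4 was at 1439 CPM and was detected in 89.1% of cells, against 200 CPM and 32.3% in the cells without Slpi. Lrg1, a secreted leucine-rich glycoprotein, was at 233 and 28.7 CPM. Reg3g ran the other way, at 317 CPM in Slpi-high cells and 2680 CPM in cells without Slpi, and Akr1c21 likewise at 10.5 and 302 CPM. All 64 Slpi-high cells carried Muc2, at 1828 CPM, against 2459 CPM in cells without Slpi. In the cells with 1 to 9 Slpi UMIs, Reg3g was at 2686 CPM and Akr1c21 at 234 CPM. Reg4 and Lrg1 were thus highest in the Slpi-high cells, where Reg3g and Akr1c21 were lowest.

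Neutrophils also make Slpi, and Slpi was at 1379 CPM in the Ptprc-positive Mettl14_cKO barcodes, where Ncf4 was at 256 CPM and Lrg1 at 75.5 CPM. In the 64 Slpi-high cells, where Slpi reached 6568 CPM, the 4 myeloid markers summed to 5.08 CPM, against 33.9 CPM in the cells with 1 to 9 Slpi UMIs and 16.2 CPM in those without Slpi. A Scrublet score of 0.25 or more was found in 1 of the 64. The same pairing was seen outside the cycling Atoh1-positive cells: in non-cycling Atoh1-positive Mettl14_cKO cells Reg4 was at 1830 CPM with Slpi at 10 or more UMIs and 181 CPM without Slpi, and in cycling Atoh1-negative cells at 618 and 11.3 CPM. In those sets the myeloid markers were higher in Slpi-high cells, at 202 CPM against 21.3 CPM without Slpi in non-cycling Atoh1-positive cells and at 91.6 against 16.3 CPM in cycling Atoh1-negative cells. The part of myeloid RNA in these pairings was not tested.

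**Figure D5:**
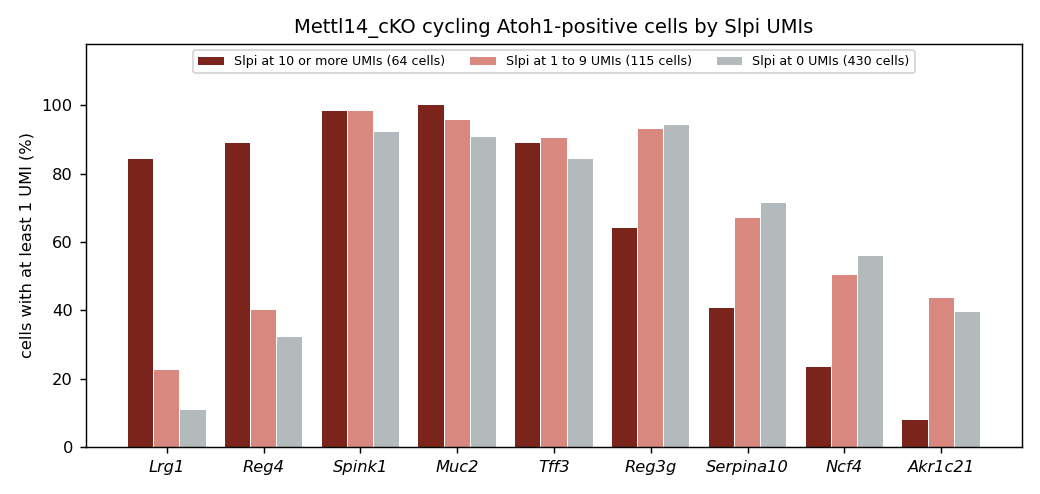
Percent of Mettl14_cKO cycling Atoh1-positive cells with at least 1 UMI of each of 9 genes, unthinned, with cells grouped by their Slpi UMIs (64, 115 and 430 cells). Lrg1 and Reg4 were found in 84.4% and 89.1% of Slpi-high cells, and Akr1c21 in 7.81%, although these cells were the deepest.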

How the data were processed

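Colonic crypt cells pooled by genotype were profiled with 10x Genomics droplets, 1 library per genotype. The authors deposited a UMI count matrix per library, 9225 Mettl14_cKO and 10181 control barcodes with 89729527 and 111239295 UMIs over 31053 genes. Per the file headers the matrices were written by Cell Ranger 3.1.0, while the submitters' processing notes name Cell Ranger 3.0.0 and Seurat 3. Which genome build and filters the authors used is not stated in the labels or headers.

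From the deposited counts, UMIs were summed over the cells of a set and divided by the set's total to give CPM. Log2 ratios used CPM plus a pseudocount of 1. Genes with at least 20 CPM and 10 UMIs in 1 library were compared, and a difference was called at 2-fold. Ratio intervals were exact conditional binomial, level intervals exact Poisson and share intervals Clopper-Pearson, all at 95%. The interval of the share difference and all others cover counting error only. Cells were thinned to 5000 UMIs with a fixed seed for shares of cells with a gene. Doublet scores came from Scrublet in scanpy 1.11.5, whose automatic threshold marked 1 and 0 barcodes and so did not work, so a score of 0.25 was used as an alternative, and no doublet was removed. Barcode sequences present in both libraries numbered 33. Sums and intervals were computed with scipy 1.17.1 and numpy 2.4.6 under Python 3.11.15, tables with pandas 2.3.3 and plots with matplotlib 3.10.9, and the scripts were tested on simulated data.

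The cells and the 18 gene lists (259 genes, 1 absent from the matrix) were chosen with earlier results of these data known. Genes named outside the lists were the 12 highest and 12 lowest between genotypes, the 10 and 6 highest and lowest against the other cell sets, and the 8 on each side whose ratio differed most from that in cycling Atoh1-negative cells. They needed at least 50 CPM, and genes over 5 times higher in Ptprc-positive barcodes were left out, as were mitochondrial, ribosomal, haemoglobin, immunoglobulin, Xist and Y chromosome genes. Gene coordinates are those of GENCODE M21 (99.6% of gene IDs matched) and promoters those of RefSeq, GRCm38.p6.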

Additional observations from a re-analysis of the deposited data

Results flagged for a closer look

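In 4 genes chosen for a large difference between the cell sets, the genotype ratio had opposite signs in cycling Atoh1-positive and cycling Atoh1-negative cells. The difference was not tested, with 1 library per genotype. Guca2b, the precursor of uroguanylin, had a log2 ratio of Mettl14_cKO over control of -0.501 in cycling Atoh1-positive and 1.25 in cycling Atoh1-negative cells. Plaur, the urokinase receptor, had -1.77 and 0.362. Pyy had -2.51 and 0.898, and 90.2% of its control UMIs in cycling Atoh1-positive cells lay in 5 cells. Sult1c2, a sulfotransferase, had 0.808 and -0.753.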

How the results depend on the processing

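Each genotype had 1 library. No paired analysis was possible because each genotype has a single library and no result comes from a test. The difference in the share of cycling Atoh1-positive cells, -0.134 percentage points, changed sign with the sum of division genes at 5 or more (0.239; 13.2% in Mettl14_cKO and 13% in control) and with mitochondrial UMIs under 10% (1.14; 17.5% and 16.4%), both within its counting interval of -1.62 to 1.37, so it has no stable direction. With Atoh1 at 2 UMIs or more the shares were 11.3% in Mettl14_cKO and 13% in control, a difference of -1.7 percentage points, and the cause was not tested. Genes at least 2-fold higher in Mettl14_cKO numbered 191 with a pseudocount of 10 CPM, 167 of genes with at least 50 CPM and 809 of all genes with at least 10 UMIs, and genes at least 2-fold lower 150, 129 and 582. A larger pseudocount shrinks ratios, and the other settings change how many genes are compared. With cells thinned to 5000 UMIs, 395 genes were lower in Mettl14_cKO, and the cause was not tested. Against cycling Atoh1-negative cells, 81 genes were at least 2-fold higher in both libraries after thinning and 86 with at least 50 CPM, and 7 were lower with at least 50 CPM. Against non-cycling Atoh1-positive cells, 42 were lower after thinning and 100 higher with at least 50 CPM. The other 42 counts and shares stayed within 1.5 times the main count or within its counting interval. Of 34 named genes 33 kept their sign in 12 other settings, the exception being Cox7a1 (-0.42 to 0.06). These genes were chosen for large ratios or differences in the same cells, which most settings reuse, so a kept sign lends them no support. Of 16 lists 13 kept their sign. The exceptions were the Atoh1 programme (-0.06 to 0.01), G1 cyclins and CDK inhibitors (-0.00 to 0.21) and enteroendocrine genes (-1.48 to 0.81). Leaving out barcodes found in both libraries, cells with enteroendocrine genes, or the 5 highest cells for a gene, was chosen after seeing the data.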

Other observations

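Several genes outside the lists differed between the genotypes by unequal amounts in cycling Atoh1-positive and cycling Atoh1-negative cells, a difference that was not tested. Cox7a1, a subunit of cytochrome c oxidase, was at 36.8 CPM in Mettl14_cKO and 39.0 CPM in control cycling Atoh1-positive cells, and at 15.4 and 52.9 CPM in cycling Atoh1-negative cells. S100g, a calcium-binding protein, was at 96.3 and 248 CPM, and at 81.6 and 565 CPM. Ccl9, a chemokine, was at 91.4 and 46.9 CPM, and at 52.6 and 7.35 CPM. Sprr1a, a cornified envelope protein, was at 9.43 and 50.9 CPM in cycling Atoh1-positive cells. Insl5, a hormone of colonic enteroendocrine cells, had 0 UMIs in Mettl14_cKO and 266 in control cycling Atoh1-positive cells, at least 68.8-fold lower against a floor of 3 UMIs per library, and 90.2% of the control UMIs lay in 5 cells.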
